A study of Mus musculus with 6 samples.

Results

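The cytosolic ribosomal protein genes were followed in liver RNA of 3 Cyp2e1-/- mice (KO1 to KO3) and 3 Cyp2e1+/+ mice (WT1 to WT3). Members were the genes of the expression table whose symbol had the form of a cytosolic ribosomal protein (Rpl or Rps, or Rplp for the stalk, then a number and at most the letter a, x or l). Kinases named Rps6k were left out. This took 78 of the 15960 genes in the table, 47 of the large subunit (60S) and 31 of the small subunit (40S). One of the small subunit members, Rps4l, is annotated as a transcribed pseudogene and the others as protein-coding. All 6 animals were labelled C57BL/6, were 22 weeks old and had been fed a high-fat diet for 14 weeks, so both genotypes carry the diet and no animal on another diet stands beside them. CYP2E1, the protein encoded by the targeted gene, belongs to the cytochrome P450 enzymes and in hepatocytes oxidizes ethanol, acetone and other small molecules. The tissue was whole liver, and a lower value in bulk tissue cannot be told apart as fewer cells of a type or less RNA per cell. The labels name the allele only as -/- or +/+ and do not say whether the knockout came from 1 or several litters.

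Each cytosolic ribosome is built from one copy of nearly every one of these proteins together with the ribosomal RNAs, and a liver cell holds very many ribosomes, so their mRNAs are among the most abundant in the cell. The large subunit forms peptide bonds and holds the exit tunnel, and the small subunit reads the mRNA. At the side of the large subunit the stalk proteins, made from Rplp0, Rplp1 and Rplp2, bind the translation factors that hydrolyse GTP. Most ribosomal protein mRNAs are short and begin with a C followed by a run of pyrimidines, the terminal oligopyrimidine or TOP motif, through which mTOR and the RNA-binding protein LARP1 control their translation. That control acts mainly on translation and stability, and RNA levels report it only in part. Ribosomal protein genes also have many processed pseudogenes, whose sequence can share reads with the gene.

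A pyrimidine run at the transcript start was more frequent among the members than among all genes, and a few starts are printed for that reason. The printed starts hold the run at the annotated start more often than the members at large, whose share is given below. Each line gives 10 bases before and 20 bases from the annotated start in the RefSeq promoter table (GRCm38.p6), 5′ to 3′ on the gene's own strand, with the pyrimidine run that opens with C nearest the annotated start in capitals, where one was found within 10 bases of it. The first 7 have the run at the annotated start, the next has it 2 bases further in, and the last 2 have none that opens within 10 bases of the annotated start.
Rplp2, chr7:141447641-141447670, plus strand: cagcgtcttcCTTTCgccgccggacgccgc
Rpl38, chr11:114668570-114668599, plus strand: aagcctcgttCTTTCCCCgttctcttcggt
Rpl28, chr7:4792955-4792984, plus strand: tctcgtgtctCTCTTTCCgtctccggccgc
Rps27, chr3:90213629-90213658, minus strand: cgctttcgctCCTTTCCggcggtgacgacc
Rps18, chr17:33955646-33955675, minus strand: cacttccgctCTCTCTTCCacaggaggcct
Rps6, chr4:86857348-86857377, minus strand: gaagtcgggcCTCTTTTTCgtgacgcctcc
Rps10, chr17:27635225-27635254, minus strand: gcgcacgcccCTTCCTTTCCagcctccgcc
Rpl13a, chr7:45128726-45128755, minus strand: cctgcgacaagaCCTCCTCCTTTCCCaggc
Rpl13, chr8:123102340-123102369, plus strand: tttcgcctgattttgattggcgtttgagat
Rplp0, chr5:115559457-115559486, plus strand: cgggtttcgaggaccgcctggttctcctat
The motif searched was a C at the start followed by at least 4 pyrimidines, on the strand of the gene. Of the 57 members with an entry in the promoter table, 14 held it exactly at the annotated start (24.6%), against 813 of 27025 genes of the whole table (3.01%). It was found in 8 of 35 large subunit members and 6 of 22 small subunit members. Within 10 bases of the annotated start it was found in 63.2% of members and 34.4% of all genes. Annotated starts can lie some bases away from the start used in liver, and a start without the letters nearby says nothing about control by mTOR. Rplp1 and Rps29, named further on, have no entry and no sequence is shown for them.

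The targeted gene went with the labels. Cyp2e1 had 254, 247 and 271 FPKM in the Cyp2e1-/- livers, against 7427, 5942 and 6071 FPKM in the Cyp2e1+/+ livers, which is -4.64 ± 0.13 as a log2 difference (SE), with an adjusted p of 6.7e-08 in limma. FPKM is fragments per kilobase of transcript, scaled to the size of the library, so levels of different genes are compared here per length. The hepatocyte markers Alb, Apoa1, Ttr and Serpina1c were at 3653 FPKM or more in every sample, so the libraries carry the label's tissue. The libraries held 9628 to 9963 genes at 1 FPKM or more, and steps in the low values put their depth at 8.05 to 10.7 M fragments, highest in KO1 and lowest in WT1. Markers of other cells were not level across the samples. The summed neutrophil markers S100a8 and S100a9 were at 15.9, 6.03 and 4.01 FPKM in KO1 to KO3 and at 20.4, 4.22 and 4.78 FPKM in WT1 to WT3, so replicate 1 was the highest of each genotype. The summed red blood cell markers were at 393, 303 and 196 FPKM in KO1 to KO3, against 536, 232 and 290 FPKM in WT1 to WT3, with Hbb-bt at or near 0 in all 6, and Alas2, the erythroid enzyme of haem synthesis, was the only marker gene that fell (limma, adjusted p = 2.0e-05). The 6 macrophage markers summed to 128, 99.1 and 78.2 FPKM in KO1 to KO3, against 122, 134 and 134 FPKM in WT1 to WT3, and none passed the test. The 6 lymphocyte markers summed to 1.69 to 2.79 FPKM in Cyp2e1-/- livers and to 1.69 to 2.69 FPKM in Cyp2e1+/+ livers, and the 4 cholangiocyte markers to at most 1.84 and 1.96 FPKM.

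The share of the liver transcriptome taken up by ribosomal protein mRNAs overlapped between the genotypes. The members summed to 15551, 17799 and 16463 FPKM in KO1 to KO3, against 20434, 14378 and 14863 FPKM in WT1 to WT3. This was 2.65%, 3.03% and 2.85% of all FPKM in the Cyp2e1-/- livers and 3.27%, 2.56% and 2.62% in the Cyp2e1+/+ livers. The Cyp2e1-/- sums lay inside the range of the Cyp2e1+/+ sums, and the highest of all 6 was WT1. The group means were 16604 ± 1131 FPKM in Cyp2e1-/- and 16559 ± 3365 FPKM in Cyp2e1+/+ livers (SD, n = 3 each), so the spread among wild type animals was the larger one.

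Large subunit genes summed to 8712, 9966 and 9250 FPKM in KO1 to KO3, against 11172, 7995 and 8234 FPKM in WT1 to WT3. Small subunit genes summed to 6839, 7834 and 7213 FPKM in KO1 to KO3, against 9262, 6384 and 6629 FPKM in WT1 to WT3. Both subunits followed the same order of samples, with WT1 at the top and WT2 at the bottom. The ratio of the large to the small subunit sum was 1.27, 1.27 and 1.28 in KO1 to KO3, against 1.21, 1.25 and 1.24 in WT1 to WT3. The Cyp2e1-/- ratios were all above the Cyp2e1+/+ ratios by a narrow margin, and no test was made of this ratio, which sums genes of different length.

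**Figure D1:**
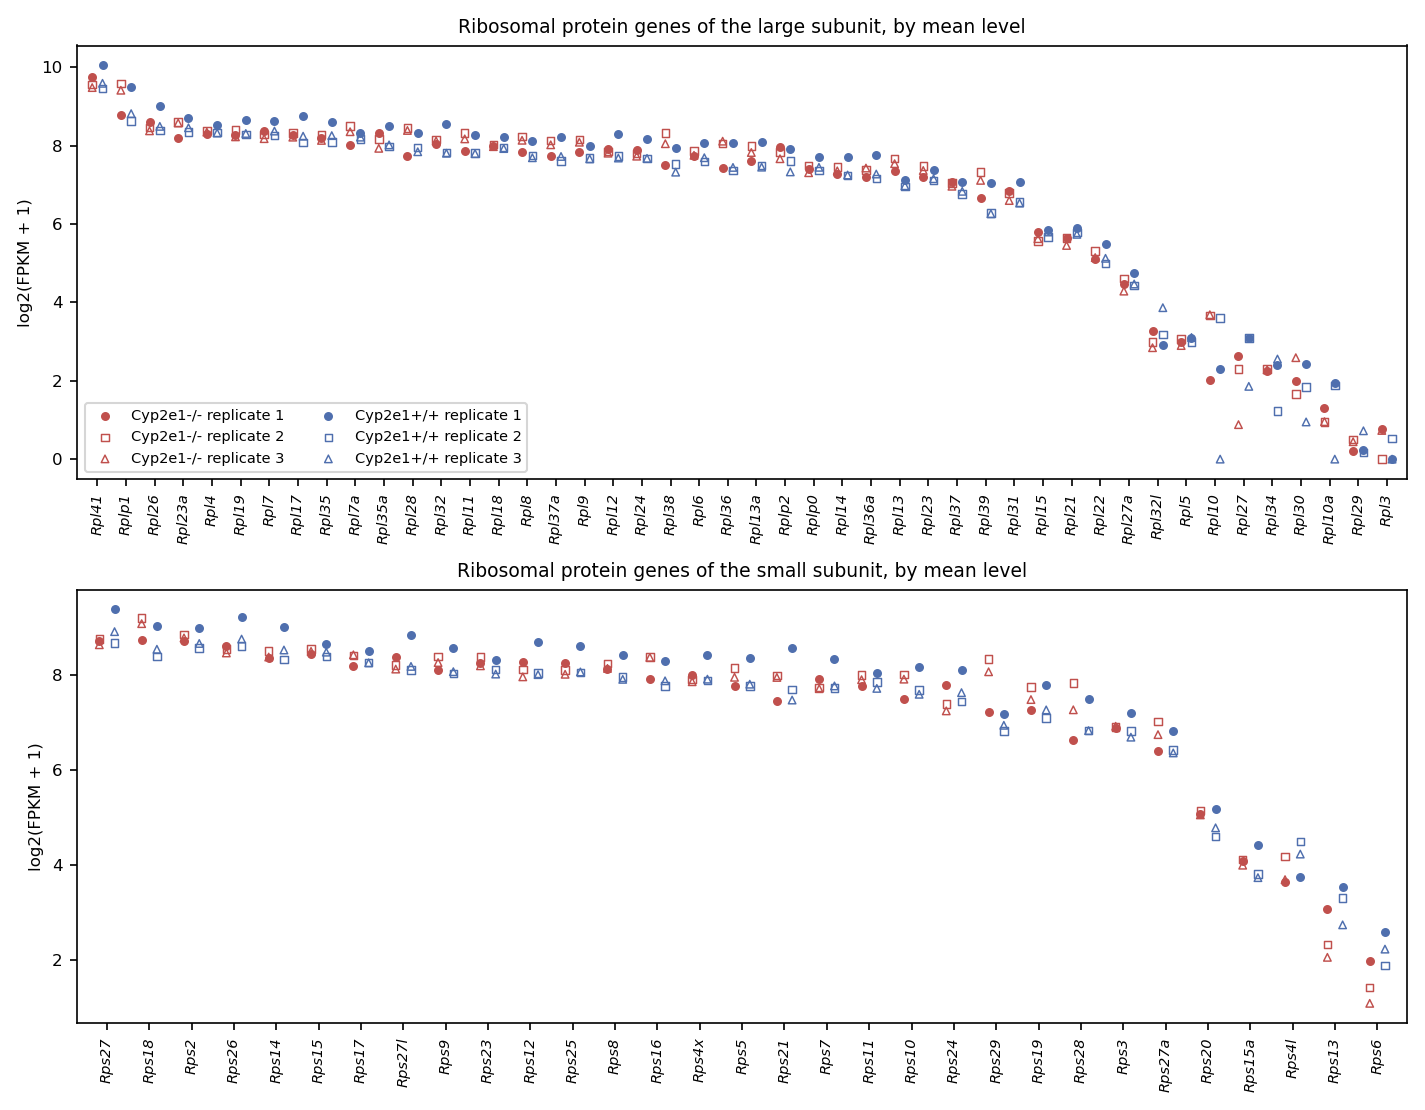
Level of 77 of the 78 ribosomal protein genes in each of the 6 livers, as log2(FPKM + 1), for the large subunit (top) and the small subunit (bottom), ordered by the mean over samples. Red marks are Cyp2e1-/- and blue marks Cyp2e1+/+ livers, filled circles are replicate 1. Most genes lie in a narrow band, 11 drop below a mean of 10 FPKM, and filled blue circles top most columns.

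The members covered a wide range of levels. By the mean over 6 samples, 59 of the 78 were at 100 FPKM or more and 62 at 50 or more, 5 lay between 10 and 50 FPKM, and 11 were under 10 FPKM. Members were spread over 19 chromosomes, with 14 on chromosome 7, which also carries Cyp2e1 (chr7, 140763819 to 140774990 in GRCm38.p6), and 4 on X. The closest of them to Cyp2e1 was Rplp2.

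The 3 stalk genes differed in level. Rplp0 (chromosome 5, 115559467 to 115563729) encodes the protein that anchors the stalk to the ribosome, and it had 169, 179 and 157 FPKM in Cyp2e1-/- livers, against 209, 164 and 173 FPKM in Cyp2e1+/+ livers. Rplp1 (chromosome 9, 61913283 to 61914510) encodes a protein that pairs with that of Rplp2 in the stalk dimers, and it had 441, 764 and 679 FPKM in Cyp2e1-/- livers, against 717, 395 and 449 FPKM in Cyp2e1+/+ livers. Rplp2 (chromosome 7, 141447651 to 141451359), the other gene of those dimers, had 248, 227 and 202 FPKM in Cyp2e1-/- livers, against 239, 193 and 160 FPKM in Cyp2e1+/+ livers. All 3 overlapped between the genotypes. Rplp1 split each genotype in opposite ways, low in KO1 and high in WT1 next to the others of the same genotype. Per length Rplp1 was the most abundant of the stalk genes in every sample, and Rplp0 the least abundant in 5 of the 6, the exception being WT3.

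The highest member was Rpl41, which encodes the smallest protein of the ribosome, a short basic peptide of the large subunit. It had 865, 750 and 712 FPKM in KO1 to KO3, against 1058, 702 and 768 FPKM in WT1 to WT3. Rpl26, a large subunit protein near the exit of the peptide tunnel, was the third of that subunit, with 388, 351 and 331 FPKM in KO1 to KO3, against 517, 332 and 358 FPKM in WT1 to WT3. In both genes the highest of the 6 values was WT1 and the genotypes overlapped.

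In the small subunit the highest were Rps27, Rps18 and Rps2. Rps27 encodes a zinc-finger protein and had 417, 432 and 398 FPKM in KO1 to KO3, against 667, 408 and 482 FPKM in WT1 to WT3. Rps18, whose protein sits in the head of the subunit, had 429, 587 and 542 FPKM in KO1 to KO3, against 521, 334 and 372 FPKM in WT1 to WT3. Rps2, whose protein lies near the entry of the mRNA channel, had 417, 463 and 439 FPKM in KO1 to KO3, against 509, 381 and 405 FPKM in WT1 to WT3. The order of the samples differed among the 3, since WT1 was the highest for Rps27 and Rps2 and KO2 for Rps18. Rps27l, the close paralog of Rps27, was also abundant, at 331, 296 and 278 FPKM in KO1 to KO3, against 458, 274 and 290 FPKM in WT1 to WT3.

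At the other end, Rpl3, whose protein reaches the peptidyl transferase centre, was listed at 0.71, 0.00 and 0.66 FPKM in KO1 to KO3 and at 0.00, 0.44 and 0.00 FPKM in WT1 to WT3. Rpl29 had 0.16, 0.41 and 0.36 FPKM in KO1 to KO3, against 0.18, 0.12 and 0.65 FPKM in WT1 to WT3. Both were under the filter of 1 FPKM in at least 3 samples and are the only members that were not tested. Rpl10, whose protein completes the large subunit late in assembly, was listed at 3.02, 11.7 and 11.9 FPKM in KO1 to KO3, against 3.91, 11.2 and 0.00 FPKM in WT1 to WT3. Values near 0 beside other members at 100 FPKM or more are uncertain as levels of these genes. Their transcripts share sequence with other genes and pseudogenes: 85.6% of the 50-base words of Rpl3, 66.8% of those of Rpl29 and 92.1% of those of Rpl10 also occur, on either strand, in transcripts of other annotated genes. Over the members under 10 FPKM with a matched transcript, the share reached from 50.6% in Rpl34 to 93.8% in Rpl5. The median was 80.3% over the tested members under 10 FPKM that had a matched transcript and 53.6% over all such tested members. Abundant members had high shares too, 98.6% for Rps27 and 95.1% for Rpl35, and the sources used here do not say how the authors assigned shared reads.

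Rps4l and Rpl32l are related copies of other members. Rps4l, which RefSeq annotates as a transcribed pseudogene and which the symbol rule nonetheless takes, had 11.5, 17.1 and 11.9 FPKM in KO1 to KO3, against 12.4, 21.5 and 17.8 FPKM in WT1 to WT3. Rpl32l had 8.68, 6.93 and 6.17 FPKM in KO1 to KO3, against 6.49, 8.05 and 13.6 FPKM in WT1 to WT3. These were the only tested members whose WT1 value was the lowest of the wild type, and the genotypes overlapped in both. Rpl3l, Rpl10l and Rpl39l were not analysed here.

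No ribosomal protein gene passed the test between the genotypes. Of the 76 tested members, 45 of the large and 31 of the small subunit, 0 rose and 0 fell at an adjusted p under 0.05 (limma on log2(FPKM + 1), Benjamini-Hochberg over all 9968 tested genes). The same rule called 0.762% of all tested genes, 47 higher and 29 lower in Cyp2e1-/- livers, so a count of 0 among 76 genes is close to that rate. Without adjustment 4 members had p under 0.05, Rpl13 and Rps29 on the positive and Rps6 and Rps13 on the negative side, against 9.93% of all tested genes. The median log2 fold change was -0.028 over the large subunit and -0.0092 over the small subunit, beside -0.028 over all tested genes. The members ranged from -0.74 to 1.15, and 69 of the 76 lay within 0.5 of 0, with 34 positive and 42 negative. The replicates carry no label of separate cages or extractions, and the p-values speak only of the spread among these 6 livers.

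The lowest adjusted p belonged to Rpl13, a large subunit gene on chromosome 8 (123102350 to 123105244). It had 162, 203 and 185 FPKM in KO1 to KO3, against 138, 124 and 125 FPKM in WT1 to WT3. Every Cyp2e1-/- value was above every Cyp2e1+/+ value, and the log2 difference was 0.50 ± 0.12 (SE), with an adjusted p of 0.147 in limma. With each sample's trend over transcript length taken out its adjusted p was 0.049 (limma), and it was the only member called under that setting. Over all settings tried it ranged between 8.2e-04 and 0.569 in limma, and leaving out KO1 gave 0.040. Its transcript shares 80.3% of its 50-base words with other genes.

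The other member whose Cyp2e1-/- values were all above was Rps29, whose protein is a zinc-finger protein of the small subunit head (chromosome 12, 69157722 to 69159186). It had 149, 324 and 268 FPKM in KO1 to KO3, against 145, 112 and 122 FPKM in WT1 to WT3. KO1 lay only just above WT1, and the log2 difference came to 0.89 ± 0.25 (SE), with an adjusted p of 0.203 in limma. Without KO1 it was 1.22 (limma, adjusted p = 0.0028), within a range of 7.7e-05 to 0.636 for its adjusted p over all settings tried in limma. Members above with no overlap were thus 2 of 76, beside 5.32% of all tested genes. Members below with no overlap were also 2 of 76, beside 10.04% of all tested genes. These were Rpl21 and Rps26. Rpl21 had 48.5, 48.8 and 42.7 FPKM in KO1 to KO3, against 58.1, 53.8 and 52.2 FPKM in WT1 to WT3 (log2 fold change -0.23 ± 0.12, SE; limma, adjusted p = 0.580). Rps26, whose protein lies by the mRNA exit channel, had 389, 374 and 353 FPKM in KO1 to KO3, against 594, 391 and 432 FPKM in WT1 to WT3 (log2 fold change -0.32 ± 0.16, SE; limma, adjusted p = 0.560). In Rps26 the gap between the genotypes was less than 2 FPKM, between KO1 and WT2.

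**Figure D2:**
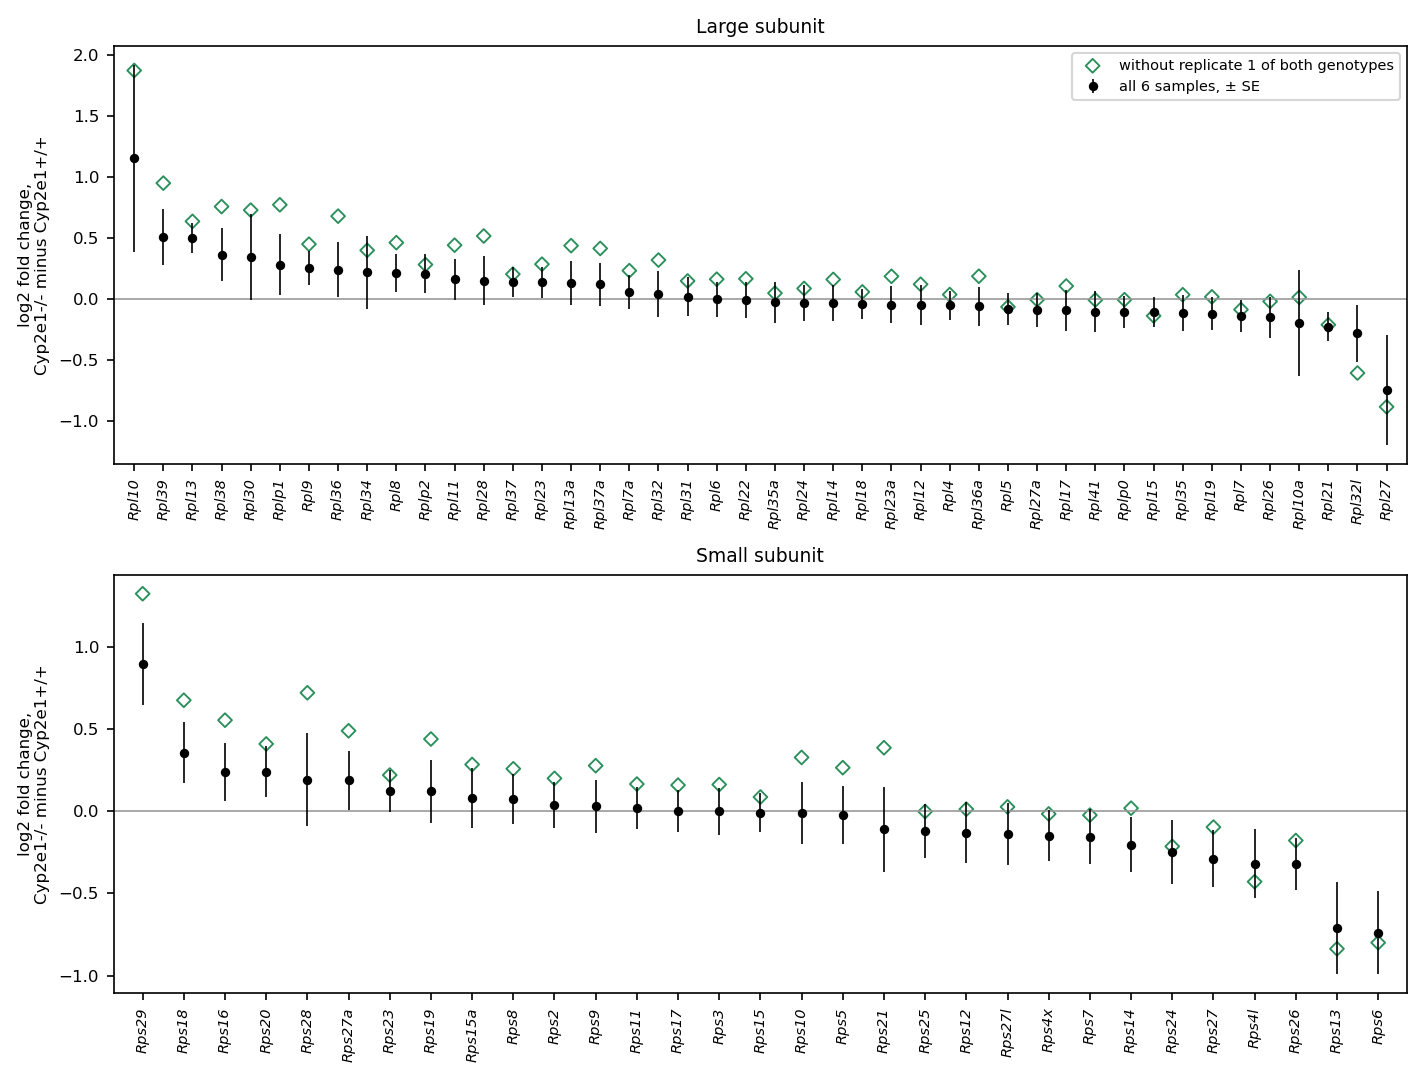
Log2 fold change of 75 of the 76 tested members, Cyp2e1-/- minus Cyp2e1+/+, on the log2(FPKM + 1) scale, with large subunit genes above and small subunit genes below. Black points with SE bars use all 6 livers, and green diamonds leave out replicate 1 of both genotypes. Most black points lie within 0.5 of 0, and diamonds sit above the black points for most genes.

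Other members with large log2 fold changes overlapped between the genotypes. Rpl39, whose protein lines the exit tunnel, had 100, 160 and 137 FPKM in KO1 to KO3, against 131, 76.8 and 75.6 FPKM in WT1 to WT3 (0.51 ± 0.23, SE; limma, adjusted p = 0.512). Rpl38, needed in mouse embryos for translation of certain Hox mRNAs, had 181, 317 and 263 FPKM in KO1 to KO3, against 243, 183 and 159 FPKM in WT1 to WT3 (0.36 ± 0.22, SE; limma, adjusted p = 0.644). In both genes KO1 lay below WT1, whereas KO2 and KO3 lay above all wild type values. Rps18 was at 0.36 ± 0.18 on the same scale (SE; limma, adjusted p = 0.580). Rps16 had 240, 332 and 331 FPKM in KO1 to KO3, against 314, 217 and 234 FPKM in WT1 to WT3, while Rps20 had 32.8, 34.5 and 32.2 FPKM in KO1 to KO3, against 35.2, 23.3 and 26.5 FPKM in WT1 to WT3. Both had a log2 fold change of 0.24 and overlapped between the genotypes. Among the stalk genes the log2 fold change was 0.21 ± 0.16 for Rplp2, 0.28 ± 0.25 for Rplp1 and -0.10 ± 0.13 for Rplp0 (SE), each with an adjusted p of 0.742 or more in limma.

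On the negative side the largest values came from low genes. Rps6, whose protein is phosphorylated by the S6 kinases downstream of mTOR, had 2.93, 1.68 and 1.12 FPKM in KO1 to KO3, against 5.03, 2.68 and 3.68 FPKM in WT1 to WT3 (log2 fold change -0.74 ± 0.25, SE; limma, adjusted p = 0.328). Rps13 had 7.44, 3.99 and 3.15 FPKM in KO1 to KO3, against 10.6, 8.91 and 5.67 FPKM in WT1 to WT3 (log2 fold change -0.71 ± 0.28, SE; limma, adjusted p = 0.416). Rpl27 had 5.17, 3.94 and 0.84 FPKM in KO1 to KO3, against 7.51, 7.54 and 2.62 FPKM in WT1 to WT3 (log2 fold change -0.74 ± 0.45, SE; limma, adjusted p = 0.654). The genotypes overlapped in all 3, and the log2(FPKM + 1) scale understates changes at these levels. Rpl10 had the largest positive value, 1.15 ± 0.77 (SE; limma, adjusted p = 0.686), which rests on WT3 being listed at 0. Rpl30, with 2.99, 2.16 and 5.01 FPKM in KO1 to KO3 against 4.38, 2.58 and 0.93 FPKM in WT1 to WT3, had 0.34 ± 0.35 (SE). Rpl10a, with 1.47, 0.93 and 0.94 FPKM in KO1 to KO3 against 2.81, 2.67 and 0.00 FPKM in WT1 to WT3, had -0.20 ± 0.43 (SE). Among the abundant genes, Rps24 was at -0.25 and Rps27 at -0.29 on the log2 scale, with overlapping values.

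**Figure D3:**
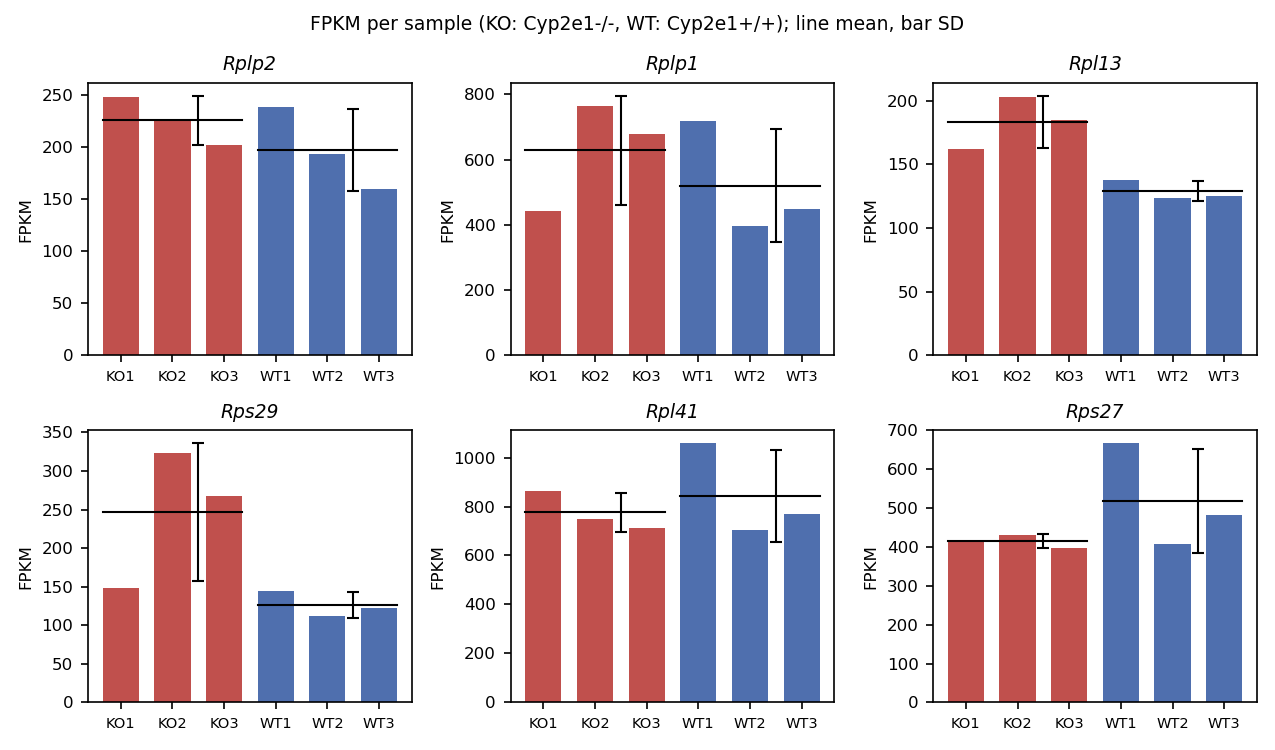
FPKM of Rplp2, Rplp1, Rpl13, Rps29, Rpl41 and Rps27 in each Cyp2e1-/- (red) and Cyp2e1+/+ (blue) liver, with the group mean as a line and the SD as a bar (n = 3 each). Rpl13 and Rps29 are higher in every Cyp2e1-/- liver, Rplp1 is low in KO1 and high in WT1, and Rpl41 and Rps27 have their highest value in WT1.

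The spread among replicates had a shape of its own, and in the wild type it was shared by nearly all members. The values of replicate 1 were set against replicates 2 and 3 in each genotype as a description, with no test, because 1 sample stands on one side. WT1 was above both WT2 and WT3 in 70 of the 76 tested members, 40 of the large and 30 of the small subunit, beside 35.0% of all tested genes. It was so for all 62 members at 50 FPKM or more. WT1 was the highest of all 6 livers in 50 of 76 members, beside 20.6% of all tested genes. The median difference of WT1 from the mean of WT2 and WT3 was 0.46 on the log2(FPKM + 1) scale over the large subunit and 0.53 over the small subunit, beside -0.053 over all tested genes.

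In the knockout, replicate 1 did not stand above the others. KO1 was the highest of the Cyp2e1-/- livers in 23 of 76 members, beside 22.3% of all tested genes. It was the lowest in 40 of 76, beside 57.3% of all tested genes. The median difference of KO1 from KO2 and KO3 was -0.049 over the large and -0.069 over the small subunit, beside -0.14 over all tested genes. Relative to all genes the members of KO1 were thus not low: under median-of-ratios scaling, which removes that shift of all genes, the medians became 0.10 and 0.094. Among transcripts of 350 to 1200 bases at 50 FPKM or more, however, the KO1 median was -0.19 for members and -0.085 for other genes. By sample, the median deviation of the members from their own mean over 6 livers was -0.053, 0.075 and -0.021 in KO1 to KO3 and 0.30, -0.17 and -0.13 in WT1 to WT3.

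**Figure D4:**
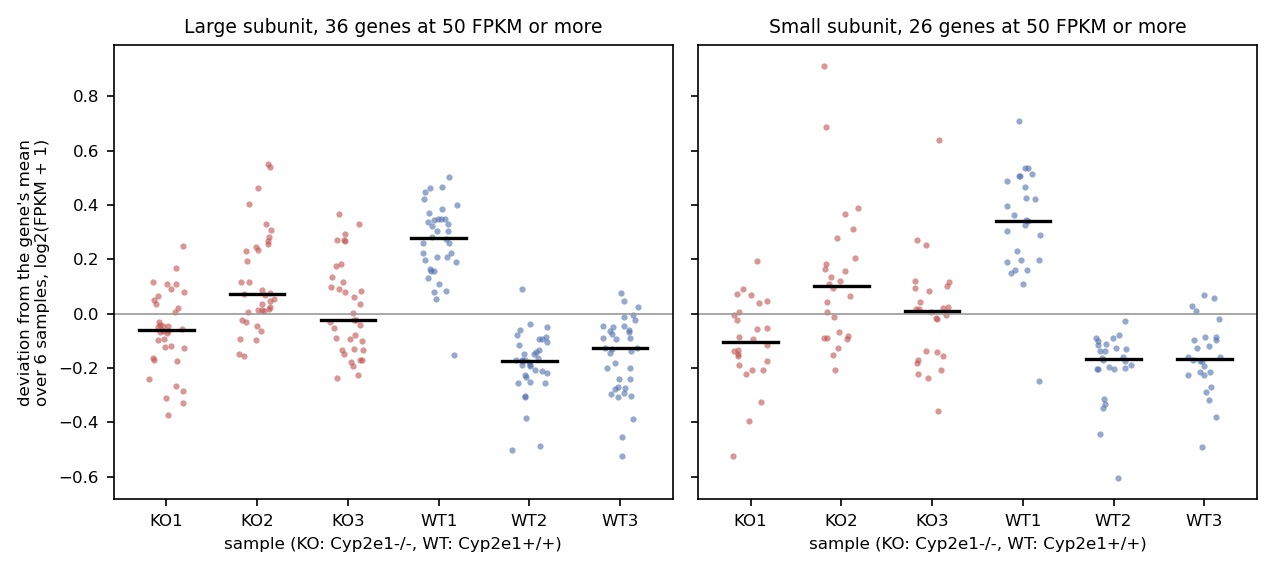
Deviation of each member at 50 FPKM or more from its own mean over the 6 livers, on the log2(FPKM + 1) scale, by sample, for 36 large and 26 small subunit genes. Points are genes and black lines medians, red for Cyp2e1-/- and blue for Cyp2e1+/+. WT1 stands above 0 for nearly all genes, WT2 and WT3 below, and the Cyp2e1-/- livers spread around 0.

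Single members show how uneven KO1 was. Among members at 50 FPKM or more, the difference of KO1 from KO2 and KO3 reached from -0.98 for Rps29 to 0.48 for Rps24, while that of WT1 from WT2 and WT3 reached from 0.12 to 0.98 and was positive for every gene. Rps28, whose protein sits near the mRNA exit site, had 97.6, 227 and 153 FPKM in KO1 to KO3, against 179, 113 and 113 FPKM in WT1 to WT3. Rps24, by contrast, had 221, 167 and 151 FPKM in KO1 to KO3, against 276, 173 and 197 FPKM in WT1 to WT3. Rps28 was low in KO1 and high in WT1, and Rps24 was high in replicate 1 of both genotypes. Rpl7a had 259, 360 and 326 FPKM in KO1 to KO3, against 318, 286 and 296 FPKM in WT1 to WT3, one of the smallest excesses of WT1. Among members at 50 FPKM or more, the strongest shortfalls in KO1 were -0.98 in Rps29, -0.93 in Rps28, -0.71 in Rplp1, -0.67 in Rpl38 and -0.67 in Rpl28. Their matched transcripts were of 390, 392, 499, 371 and 1106 bases, and Rpl41 of 437 bases had a difference of 0.24.

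Ribosomal protein mRNAs are short, with a median matched transcript length of 832 bases in the large and 751 bases in the small subunit, against 2698 bases over all tested genes, and short transcripts outside the members showed the excess in WT1 too. Among genes outside the members, the median difference of WT1 from WT2 and WT3 was 0.48 for transcripts of up to 500 bases, 0.37 for over 500 to 750, 0.29 for over 750 to 1000, 0.21 for over 1000 to 1500, 0.067 for over 1500 to 2500, -0.11 for over 2500 to 4000 and -0.31 above 4000 bases. In the knockout the medians did not go down steadily with length and were -0.17, -0.10, -0.018, -0.046, -0.071, -0.13 and -0.25 in the same classes. Of the 262 genes outside the members with transcripts of 350 to 1200 bases and a mean of at least 50 FPKM, WT1 was the highest wild type liver in 240, and the median difference was 0.39. The 53 members in the same range had a median of 0.51 in Cyp2e1+/+ livers. In Cyp2e1-/- livers the medians were -0.19 for those members and -0.085 for the genes outside.

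With the trend over transcript length taken out of each sample, the median difference of WT1 came down to 0.13 over the large and 0.19 over the small subunit, and with the trend over GC content also out it was 0.13 and 0.14. Across the 75 tested members with a matched length, Spearman's rho between the WT1 difference and length was -0.37, and across 9808 genes outside the members it was -0.56. In the knockout it was 0.22 over the members and -0.24 over the other genes. These correlations run across genes of the same libraries, which are not independent replicates. The summed neutrophil and red blood cell markers were highest in WT1 and in KO1 of their genotypes, S100a8 and S100a9 are themselves short, and the part of other cells or of RNA quality in the WT1 values was not tested.

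Without replicate 1 of both genotypes, 24 of the 76 members rose in Cyp2e1-/- livers and 2 fell (limma, KO2 and KO3 against WT2 and WT3, adjusted over 9968 genes), beside 6.92% of all tested genes that rose and 4.95% that fell. Those that rose were 13 large and 11 small subunit genes. This choice of samples was made with the values of replicate 1 known, only 2 samples are left in each group, and the result is no independent evidence of a difference. The median log2 fold change was then 0.16 over the large and 0.16 over the small subunit, beside -0.0099 over all tested genes. Among members that passed the test, the largest were Rps29 with 1.32 (limma, adjusted p = 7.7e-05), Rpl39 with 0.95 (limma, adjusted p = 2.6e-04), Rplp1 with 0.77 (limma, adjusted p = 6.6e-04) and Rpl38 with 0.76 (limma, adjusted p = 0.0022). Rps28 with 0.72, Rpl36 with 0.68, Rps18 with 0.67, Rpl13 with 0.64, Rps16 with 0.55 and Rpl28 with 0.52 also rose. Rps13 (-0.84; limma, adjusted p = 0.032) and Rps6 (-0.80; limma, adjusted p = 0.032), both under 10 FPKM, fell.

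Several abundant members did not pass the test there. Rpl41 had a log2 fold change of -0.0071 without replicate 1, Rps27 of -0.097, Rps26 of -0.18 and Rplp0 of -0.0047, and Rplp2 had 0.28 (limma, adjusted p = 0.105). The excess was again not particular to ribosomal proteins, since 85 of the 262 short and abundant genes outside the members rose and 24 fell in the same 4 livers. Of the 53 members in the same range of length and level, 23 rose and 0 fell. The median log2 fold change was 0.22 over these members and 0.13 over the genes outside. With the trends over transcript length and GC content also taken out, 16 members rose and 9 fell of 75, beside 5.48% and 4.83% of genes. All 16 were among the 24, and they were 11 large and 5 small subunit genes. Of the genes that fell under that setting, 2 were large and 7 small subunit members, among them Rpl41 and Rps27. In these 4 livers, 5 of the 6 macrophage markers fell as well, with sums of 99.1 and 78.2 FPKM in KO2 and KO3 against 134 and 134 FPKM in WT2 and WT3, and their part in the ribosomal protein values was not tested.

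Genes that work with the cytosolic ribosome gave no call either. The lists were chosen with results of these data known. Of 10 ribosomal protein genes whose symbols lack the usual form, 8 were tested, 0 rose and 0 fell, with a median log2 fold change of 0.036. Rpl36al had 234, 243 and 214 FPKM in KO1 to KO3, against 303, 218 and 248 FPKM in WT1 to WT3. Fau, which makes a ubiquitin-like protein fused to a small subunit protein, had 57.5, 122 and 114 FPKM in KO1 to KO3, against 100, 45.5 and 78.1 FPKM in WT1 to WT3, and it was named after its values were seen. In Fau, WT1 was the highest wild type liver and KO1 the lowest of the knockout.

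All 78 listed mitochondrial ribosomal protein genes were tested, and 0 rose and 0 fell, with a median log2 fold change of -0.085. Their values in Cyp2e1-/- livers were below all Cyp2e1+/+ values in 14 and above in 2, beside 10.04% and 5.32% of all tested genes. Mrpl12 had 78.2, 97.5 and 92.4 FPKM in KO1 to KO3, against 94.2, 73.9 and 74.7 FPKM in WT1 to WT3. Mrpl30 had 70.4, 73.5 and 68.9 FPKM in KO1 to KO3, against 107, 71.4 and 79.2 FPKM in WT1 to WT3. As with the cytosolic genes, WT1 was above WT2 and WT3 in most of them, 63 of 78, and the median difference was 0.29.

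Among the factors that build ribosomes, 47 assembly factors were tested with 0 calls and a median log2 fold change of -0.019, and 19 RNA polymerase I genes with 0 calls and a median of 0.083. Npm1, a nucleolar chaperone of assembly, had 82.6, 72.6 and 80.1 FPKM in KO1 to KO3, against 103, 84.0 and 100 FPKM in WT1 to WT3, with no overlap (log2 fold change -0.28; limma, adjusted p = 0.50). Polr2f, a subunit shared by the nuclear RNA polymerases, had 26.2, 27.1 and 24.5 FPKM in KO1 to KO3, against 35.9, 31.4 and 36.3 FPKM in WT1 to WT3, also with no overlap (-0.40; limma, adjusted p = 0.254). Of the 47 assembly factors, 7 were below with no overlap and 2 above, beside 10.04% and 5.32% of all tested genes. Of the 19 RNA polymerase I genes, 2 were below and 1 above. WT1 stood out much less here: the median difference from WT2 and WT3 was 0.034 for the assembly factors, whose median transcript length was 2738 bases.

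Elongation factors and other genes with TOP mRNAs (20 tested), initiation factors (30 tested) and mTOR pathway genes (20 tested) had 0 calls, with medians of -0.072, -0.041 and -0.018. Eef1a1, the elongation factor that carries tRNAs to the ribosome and itself a TOP mRNA, had 2105, 2385 and 2228 FPKM in KO1 to KO3, against 2408, 2352 and 2448 FPKM in WT1 to WT3. Eef2, which moves the ribosome along, had 358, 521 and 496 FPKM in KO1 to KO3, against 404, 458 and 427 FPKM in WT1 to WT3. Neither had WT1 far above WT2 and WT3, with differences of 0.0053 and -0.13, but most genes of their list went the other way. Over the 20 elongation and TOP genes, WT1 was the highest wild type liver in 13, with a median difference of 0.21. The median difference was -0.031 over the initiation factors and -0.28 over the mTOR pathway genes. Eif1 had 280, 246 and 238 FPKM in KO1 to KO3, against 296, 218 and 211 FPKM in WT1 to WT3, and Eif5a had 177, 204 and 207 FPKM in KO1 to KO3, against 204, 183 and 190 FPKM in WT1 to WT3. Eif4ebp1, the inhibitor of cap-dependent initiation that mTOR phosphorylates, had 29.8, 42.7 and 44.1 FPKM in KO1 to KO3, against 49.0, 39.0 and 37.3 FPKM in WT1 to WT3. In Eif4ebp1, as in Rplp1, KO1 was the lowest knockout liver and WT1 the highest wild type liver.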

How the data were processed

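Liver RNA of 6 mice was sequenced, with RNA from a Qiagen miRNeasy kit and Illumina TruSeq libraries, per the labels' protocols. The submitters' processing notes name HISAT and mm10. The sources used here do not name the program and annotation behind the expression values, or say whether strand was used. Per the file headers, what the authors deposited is FPKM per gene, to 2 decimals. A count model was not used, as the table has no counts. Depth was estimated from steps in the low values: of 184 to 206 values in each sample, 69.5% to 74.0% were whole steps to within 0.15, where chance gives 30%.

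Genotypes were compared with limma 3.58.1 (lmFit, eBayes with its trend option, R 4.3.3). Values were log2(FPKM + 1) of genes at 1 FPKM or more in at least 3 of 6 samples, with Benjamini-Hochberg adjustment over the 9968 tested genes and a threshold of 0.05. Fold changes are Cyp2e1-/- minus Cyp2e1+/+. The fit was tested on simulated data before use. Transcript lengths, GC content and shared 50-base words came from GENCODE vM21 transcripts matched by accession (99.1% of tested genes, 77 of 78 members). Positions, promoters and starts came from RefSeq GRCm38.p6. Trends over length were smoothed with lowess (span 0.3).

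The members, lists and settings were chosen with earlier results of these data known. Named members are the stalk genes, the 3 highest of each subunit, the 4 largest positive and negative log2 fold changes of each, the 3 largest and smallest replicate 1 differences in each, related copies (Rps4l, Rps27l and others), and members not tested. In other lists they are the members past the threshold or the 2 highest. Fau, Rpl35, Rpl36 and the other genes named outside this rule were picked with their values in view, and 2 genes that the rule takes are left out here.

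Replicate numbers come from the sample titles. Deviations from the group means correlated at 0.30, 0.20 and 0.16 between samples of the same number over the tested genes, all above 0.1, so a fit with the replicate as a block was an alternative. KO3 correlated more with WT2 (0.21) than with WT3. Other settings were the pseudocount, the filter, scaling, length and GC trends, the variance model, array weights and leaving out samples.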

Additional observations from a re-analysis of the deposited data

How the results depend on the processing

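No member passed the threshold under the other pseudocounts and filters, quantile normalization, median-of-ratios scaling, the sum without the 10 most abundant genes, the other variance models or the replicate block, which called 72 genes in all, 42 higher and 30 lower, and changed no member's call. Taking out the length trend called 1 large subunit member (Rpl13). Array weights called 11 large and 8 small subunit members (6 higher and 2 lower) among 1151 genes. Leaving out replicate 1 of both genotypes called 13 large and 13 small among 1183 genes, and with length and GC trends also out 13 large and 12 small among 1019. Leaving out 1 library at a time called 29 to 211 genes, 211 without KO1 and 117 without WT1, with 0 to 1 member in each subunit, which were Rpl13 and Rps29 without KO1. No filter gave 32 genes, and 1 FPKM in all 6 samples gave 48.

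The large subunit median log2 fold change was 0.16 without replicate 1 of both genotypes. The median difference of KO1 from KO2 and KO3 turned positive with median-of-ratios scaling (0.10 large, 0.094 small) and with the length trend out (0.027 large, 0.022 small), and was 0.022 in the large subunit with GC out as well. That of WT1 stayed positive, at 0.13 (large) and 0.19 (small) with length out and 0.13 and 0.14 with GC out too.

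Of 602 log2 fold changes of 29 named members over the other settings, 547 kept their sign and side of the threshold, 40 passed it, 0 were lost and 15 in 9 members changed sign. Rpl10a was 0.35 with a pseudocount of 0.1 and 0.014 without replicate 1 of both genotypes, and between -0.83 and 0.13 with 1 library left out. With 1 library left out, Rpl26 lay between -0.27 and 0.044, Rpl30 between -0.053 and 0.69, Rpl41 between -0.22 and 0.074, Rpl7a between -0.046 and 0.19, Rps2 between -0.047 and 0.16, Rps28 between -0.10 and 0.50, and Rps27l between -0.27 and 0.095. Rps27l was 0.0087 with array weights and 0.026 without replicate 1 of both genotypes, and Rplp0 was 0.012 with array weights. The cause of these changes was not tested.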

Other observations

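Rps6 kinases, which phosphorylate the small subunit protein Rps6, were measured beside the members. Rps6kb1, the S6 kinase acted on by mTOR, had 3.53, 3.36 and 4.09 FPKM in KO1 to KO3, against 3.61, 3.61 and 4.42 FPKM in WT1 to WT3. Rps6ka1 had 4.10, 4.14 and 3.84 FPKM in KO1 to KO3, against 5.68, 4.87 and 4.93 FPKM in WT1 to WT3, with no overlap (log2 fold change -0.29; limma, adjusted p = 0.537). Neither passed the test.

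A pseudogene of the stalk gene, Rplp2-ps1, had 3.30, 2.17 and 1.32 FPKM in KO1 to KO3, against 1.62, 0.73 and 0.00 FPKM in WT1 to WT3 (log2 fold change 0.93; limma, adjusted p = 0.361). As in Rplp2 itself, replicate 1 was the highest of each genotype.

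Without replicate 1 of both genotypes, Spearman's rho between the log2 fold change and transcript GC content was 0.21 over 75 members and 0.41 over 9808 genes outside them. The points are genes of the same 4 libraries.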
